A study of Mus musculus with 28 samples.

Results

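The genes described here are 34 cytokines, chemokines and receptors of the mouse, chosen by name: 8 CC chemokines, 8 chemokines of the CXC and CX3C kinds, 2 chemokine receptors, 5 genes of the interleukin-1 family, 5 other interleukins and gp130 cytokines, 2 ligands of the tumour necrosis factor (TNF) superfamily, 3 cytokine receptors and the prostaglandin synthase Ptgs2. All 34 were found among the 40481 mouse genes of the count table. They were chosen with earlier results of these data known. RNA was sequenced from microglia, sorted with an antibody against CD11b, and from astrocytes, sorted with an antibody against ACSA-2, of the cortex, hippocampus and thalamus of the same mice. Every mouse, controls included, carried floxed human APOE4 (APOE4fl/fl) and received tamoxifen, as 2 doses of 100 mg per kg when 3.8 months old, with cells taken 10 days later. The 4 genotype groups were APOE4fl/fl alone, called amyloid-free Cre-negative (2 mice), APOE4fl/fl with ALDH1L1-CreERT, called amyloid-free Cre-positive (2 mice), APPPS1 with APOE4fl/fl, called APPPS1 Cre-negative (5 mice), and APPPS1 with both, called APPPS1 Cre-positive (4 mice used of 5 labelled). APPPS1 transgenes make neurons produce human amyloid precursor protein and a mutant presenilin, so that plaques form. CreERT under the ALDH1L1 promoter acts in astrocytes once tamoxifen is given, and removes the floxed APOE4 there.

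Chemokines are small secreted proteins that draw cells bearing the matching receptor, and CC, CXC and CX3C name the spacing of their first cysteines. Interleukin-1 family members, TNF and the gp130 cytokines signal between glia and, through NF-kB and STAT factors, switch on further cytokine genes. Microglia are the resident macrophages of the brain and a main source of CC chemokines and of interleukin-1 there, while Il33 is known from astrocytes and oligodendrocytes.

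Mouse 459 (APPPS1 Cre-positive) had microglial genes in its library labelled astrocyte and astrocyte genes in its library labelled microglia, so it is left out of all values below unless stated. Ccl4, for example, stood at 3373 CPM (counts scaled to each library’s mouse gene total) in its library labelled astrocyte and at 1.10 CPM in its library labelled microglia. The other 26 libraries from 13 mice had mouse gene totals of 26139519 to 59165002 counts, and 10 microglial markers summed to 15620 to 36646 CPM in microglia and to 93.6 to 139 CPM in astrocytes. The limit set for a gene at 0, 3 counts, equals 0.0507 to 0.115 CPM. A pair of libraries stood apart for the genes described here. The microglia of mouse 26 (amyloid-free Cre-positive) had the highest value of 13 libraries for 15 of the 34 genes, the lowest microglial marker sum (15620 CPM against at least 30393 CPM elsewhere) and the highest sum of 12 monocyte and neutrophil markers (8294 CPM against 285 to 6695 CPM). The astrocytes of mouse 774 (APPPS1 Cre-negative) had the highest value for 17 of the 33 genes detected, and summed to 395 CPM for the monocyte and neutrophil markers against 0.811 to 5.06 CPM elsewhere. Human APOE, the floxed gene, stood in APPPS1 astrocytes at 1273 to 1864 CPM without Cre and 507 to 827 CPM with it. In amyloid-free astrocytes it stood at 1052 and 1411 CPM without Cre and at 521 and 926 CPM with it, so the groups with Cre were lower with no overlap in either case. In microglia, APPPS1 libraries held 110 to 815 CPM without Cre and 328 to 1050.2 CPM with it, which overlapped. Which exons are floxed is not stated in the labels. In sorted bulk RNA, fewer cells of a type and less RNA per cell cannot be told apart.

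**Figure D1:**
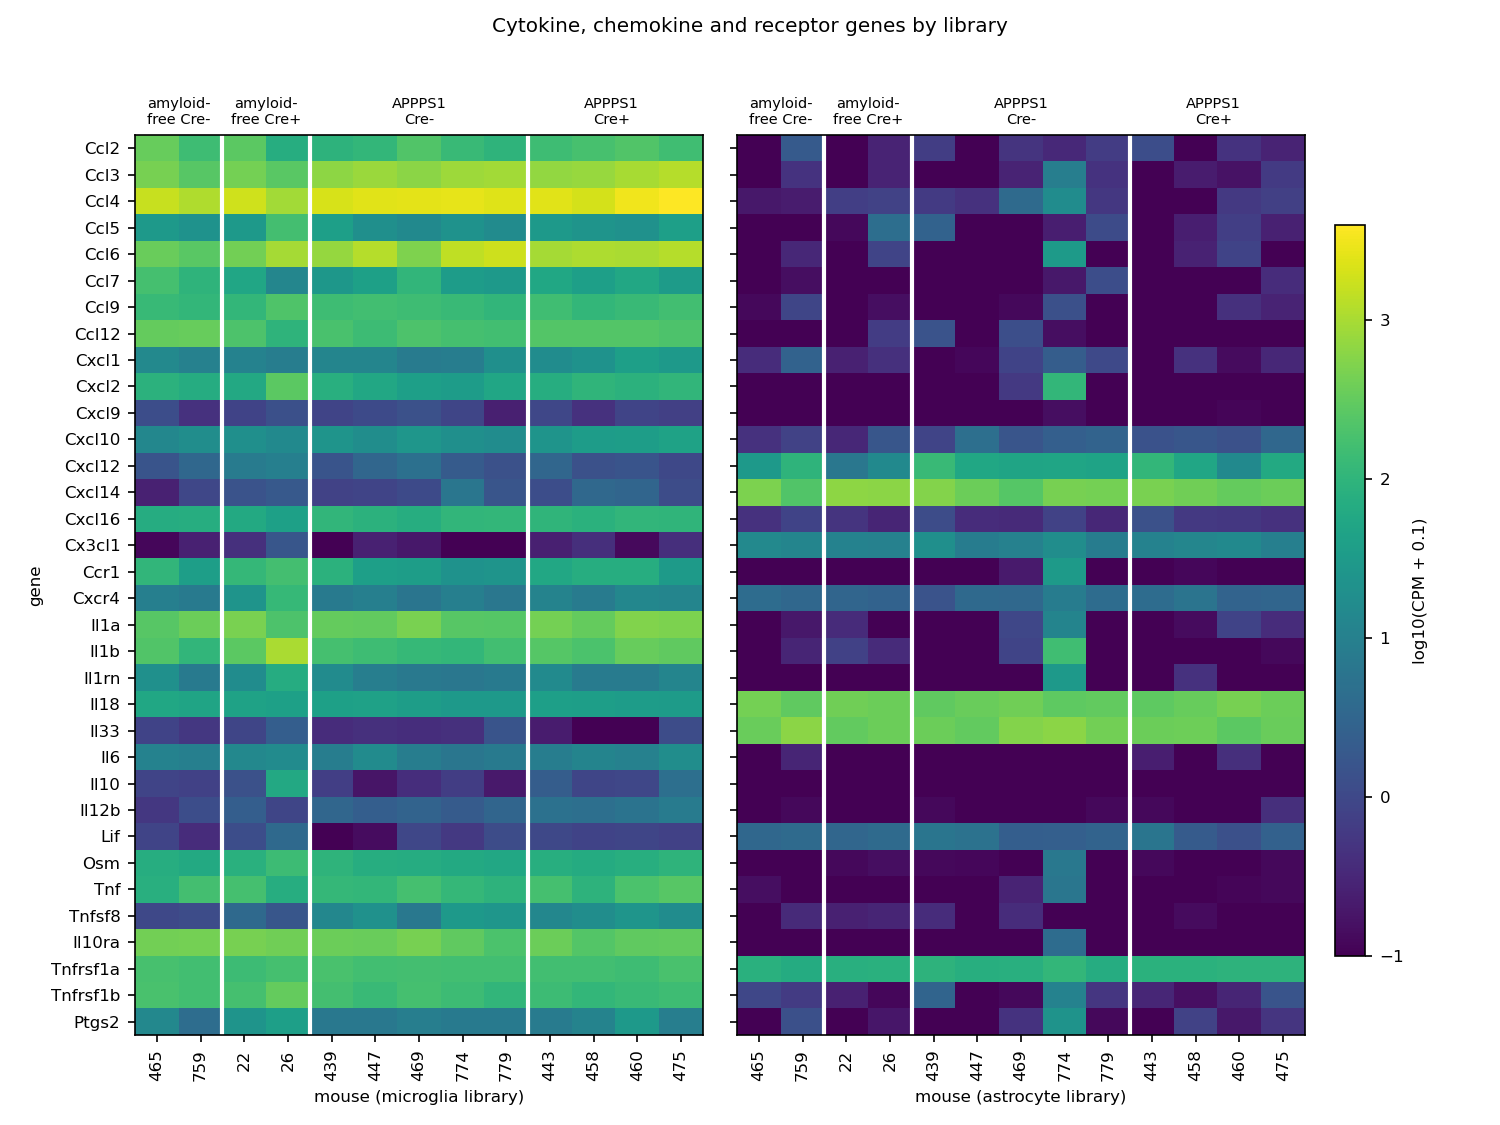
Level of each of the 34 genes (rows) in each library (columns, by mouse number), microglia on the left and astrocytes on the right, as log10 of CPM plus 0.1, with white lines between the 4 genotype groups. Most rows are bright in microglia and dark in astrocytes, Il18, Il33 and Cxcl14 are bright in astrocytes, and the column of mouse 774 is brighter than its neighbours among the astrocytes.

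The promoter windows of 5 genes are shown: Tnfsf8, Ccl3 and Cxcl10 rose with amyloid in microglia, and Cxcl1 and Cxcl2 are adjacent genes described below. In microglia, mouse 475 had the second highest value of both Cxcl1 (31.4 CPM) and Cxcl2 (108 CPM). The highest libraries differed, mouse 460 for Cxcl1 (39.3 CPM) and mouse 26 for Cxcl2 (273 CPM). Each window runs from 250 bases before to 50 bases after the RefSeq start, 5′ to 3′ on the gene's strand, in build GRCm38.p6. Capitals mark matches, on either strand, to 3 sets of letters: GGGANNNNCC (NF-kB-type), GAAANNGAAA (ISRE-type, the interferon response element) and TGANTCA (AP-1-type).
Tnfsf8 (chr4:63861235-63861534, minus strand): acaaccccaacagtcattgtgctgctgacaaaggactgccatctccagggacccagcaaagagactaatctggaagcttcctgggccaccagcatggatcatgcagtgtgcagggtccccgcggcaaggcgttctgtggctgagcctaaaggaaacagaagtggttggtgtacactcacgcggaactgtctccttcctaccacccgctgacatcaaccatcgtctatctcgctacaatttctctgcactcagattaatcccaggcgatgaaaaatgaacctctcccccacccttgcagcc
Ccl3 (chr11:83649329-83649628, minus strand): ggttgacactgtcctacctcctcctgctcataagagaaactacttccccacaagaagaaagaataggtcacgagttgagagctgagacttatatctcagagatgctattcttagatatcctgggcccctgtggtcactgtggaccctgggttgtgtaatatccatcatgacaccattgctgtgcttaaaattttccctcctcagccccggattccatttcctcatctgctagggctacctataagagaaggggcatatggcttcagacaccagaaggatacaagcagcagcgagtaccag
Cxcl10 (chr5:92348840-92349139, minus strand): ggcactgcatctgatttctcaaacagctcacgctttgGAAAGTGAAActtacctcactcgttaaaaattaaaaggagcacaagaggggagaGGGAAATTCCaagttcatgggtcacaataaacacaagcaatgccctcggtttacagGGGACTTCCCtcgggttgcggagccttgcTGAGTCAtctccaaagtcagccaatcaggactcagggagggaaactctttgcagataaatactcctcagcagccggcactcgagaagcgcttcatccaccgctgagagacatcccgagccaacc
Cxcl1 (chr5:90890995-90891294, plus strand): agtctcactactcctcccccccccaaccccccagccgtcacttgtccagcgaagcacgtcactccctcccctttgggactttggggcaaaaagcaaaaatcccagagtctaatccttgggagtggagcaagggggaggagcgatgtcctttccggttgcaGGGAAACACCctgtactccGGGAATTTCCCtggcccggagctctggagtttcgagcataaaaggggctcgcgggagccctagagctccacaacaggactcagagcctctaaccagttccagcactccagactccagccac
Cxcl2 (chr5:90903649-90903948, plus strand): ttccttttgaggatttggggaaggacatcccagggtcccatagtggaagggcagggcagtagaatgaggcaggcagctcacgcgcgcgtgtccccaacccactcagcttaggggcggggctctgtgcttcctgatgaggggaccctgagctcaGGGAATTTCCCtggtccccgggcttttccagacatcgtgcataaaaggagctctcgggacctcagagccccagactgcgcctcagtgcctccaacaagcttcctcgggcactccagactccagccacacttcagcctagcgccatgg
The Cxcl10 window held NF-kB-type letters 159 and 103 bases before the start, ISRE-type letters at 213 and AP-1-type letters at 74. The Cxcl1 window held NF-kB-type letters at 90 and 71, and the Cxcl2 window at 97. The matches at 71 and 97 overlap a match on the opposite strand, at 70 and 96, and both pairs lie in the run GGGAATTTCCC. No match lay in the windows of Tnfsf8 and Ccl3, which says only that these letters are not in these 300 bases. RefSeq windows were matched by symbol for 26 of the 34 genes, and 9 of them (34.6%) held NF-kB-type letters against 22.9% of 27025 genes. ISRE-type letters were found for 3 genes (11.5% against 3.99%) and AP-1-type letters for 7 (26.9% against 8.97%). A gene is counted when any of its windows holds the letters, and Il1rn had 3 windows and Il33 had 2. Of the 32851 single windows, 20.7%, 3.44% and 7.81% held the 3 sets. The remaining 8 genes are Ccl2, Ccl4, Ccl5, Ccl7, Cxcl16, Il10, Il10ra and Osm. These matches are descriptions of letters.

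The sorts were compared to see which population held each gene. Of the 34 genes, 28 were higher in microglia and 6 in astrocytes, and all 34 passed an adjusted p of 0.05 (edgeR's quasi-likelihood test, Benjamini-Hochberg adjustment over 21612 genes), where 76.5% of all genes passed (35.4% higher in microglia and 41.1% lower). For 22 genes every microglia library lay above every astrocyte library (12.1% of all genes), and for 4 below (24.5%). DESeq2 passed 28 of the 34, and leaving out any 1 mouse kept the count at 34. With the mouse as a block it was also 34. Shares of all genes, here and below, are those of the main edgeR fit. None is given for other tools, other settings or fits with a mouse left out.

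Per length of transcript, 4 of the CC chemokines led in microglia. Ccl4, a CC chemokine, had a median of 3602 RPKM (CPM per kilobase of exon) and Ccl3, a ligand of Ccr1, of 928 RPKM. Ccl6, a ligand of Ccr1, had 533.5 RPKM and Ccl12, a ligand of Ccr2, 390 RPKM. Over the 13 libraries Ccl4 ran from 1417 to 6137 RPKM and Ccl3 from 332 to 1601 RPKM. These pooled ranges overlapped, though Ccl4 stood above Ccl3 within each library. The pooled ranges of Ccl3 and Ccl6 (144.5 to 995 RPKM) overlapped too. Il1a, an interleukin-1 alarm cytokine, had 167 RPKM, the monocyte chemokine Ccl2 had 130 RPKM, Il1b had 106 RPKM and the interleukin-10 receptor subunit Il10ra had 105 RPKM. The RPKM ranges of Il1a (102.5 to 276), Ccl2 (64.2 to 294), Il1b (56.7 to 548) and Il10ra (56.6 to 131) overlapped. Other CC chemokines stood lower, Ccl7 with 51.0 RPKM, Ccl9 with 42.7 RPKM and Ccl5 with 24.8 RPKM. At the lower end stood Il12b, the shared subunit of interleukins 12 and 23, with 1.40 RPKM, Il10 with 0.600 RPKM and the interferon-induced Cxcl9 with 0.261 RPKM. Immediate early genes, which respond to cell isolation, summed to 5040 to 16119 CPM in microglia and 235 to 647 CPM in astrocytes. In microglia, monocyte and neutrophil markers summed to 285 to 8294 CPM and border macrophage markers to 248 to 876 CPM. The part of isolation and of these other cells in the microglial levels was not tested.

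In astrocytes the order was headed by Il18, a cytokine activated by the inflammasome, with 343 RPKM, the chemokine Cxcl14, with 235 RPKM, and Il33, a nuclear alarm cytokine, with 128 RPKM. Over the libraries they ran from 275 to 446 RPKM, from 121 to 356 RPKM and from 93.8 to 216 RPKM, so neighbours in the order overlapped, and all 3 lay above Tnfrsf1a (25.6 to 42.1 RPKM). Il18 stood at 283 to 460 CPM in astrocytes and 30.9 to 55.7 CPM in microglia, a log2 difference of -2.65 ± 0.11 (SE; adjusted p = 9.0e-16). Cxcl14 stood at 220 to 650 CPM against 0.170 to 6.27 CPM (-7.86 ± 0.48). Il33 stood at 271 to 624 CPM against 0 to 2.26 CPM (-8.81 ± 0.57). No microglia library reached the lowest astrocyte library for any of these 3. Log2 differences between sorts carry the scaling of the fit, which CPM do not, so they can differ from the ratio of the CPM shown. The astrocyte libraries also held oligodendrocyte RNA: 8 oligodendrocyte markers summed to 2254 to 20992 CPM there and to 53.9 to 154 CPM in microglia. Il33 was highest in mice 759, 774 and 469 (624, 622 and 553 CPM), whose oligodendrocyte sums were 20992, 10705 and 13326 CPM, while mouse 458 had 384 CPM of Il33 at a sum of 12606 CPM. The part of oligodendrocytes in the astrocyte levels was not tested. Cx3cl1, the ligand of the microglial receptor Cx3cr1, was higher in astrocytes too, at 8.31 to 19.3 CPM against 0 to 1.61 CPM (-5.63 ± 0.48). Cxcl12, the ligand of Cxcr4, had 6.66 to 132 CPM against 0.898 to 9.68 CPM (-3.26 ± 0.36), and Lif, a gp130 cytokine, 1.25 to 6.06 CPM against 0 to 3.71 CPM (-1.56 ± 0.48); the ranges of both overlapped. Endothelial markers summed to 79.4 to 1142 CPM in astrocyte libraries and 35.4 to 359 CPM in microglia, and pericyte and smooth muscle markers to 216.5 to 2723 CPM and 1.76 to 68.9 CPM. The part of these cells in the Cxcl12 difference was not tested. Neuron markers summed to 315 to 450.5 CPM in astrocyte libraries and 4.08 to 35.0 CPM in microglia. The part of neurons in the Cx3cl1 difference was not tested. Reads of Il18 cannot be separated from those of Bco2, which overlaps it on the opposite strand, because no source used here says whether the counting used strand. The same holds for Il1a and Gm14023, among others.

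The TNF receptor Tnfrsf1a was shared by both sorts, with 141 to 193 CPM in microglia and 66.4 to 109 CPM in astrocytes (1.46 ± 0.09), while Tnfrsf1b, the other TNF receptor, had 108 to 320 CPM and 0 to 10.8 CPM. Cxcl16, a membrane-bound chemokine that also binds lipoproteins, had 41.5 to 112 CPM in microglia and 0.204 to 1.31 CPM in astrocytes (7.80 ± 0.32). Il10 was at 0 in all 13 astrocyte libraries, which allows up to 0.0822 CPM. Several genes were near 0 in astrocytes other than those of mouse 774. Without that library the highest astrocyte value of Il1b was 0.789 CPM, of Cxcl2 0.487 CPM and of Ccr1 0.116 CPM.

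Amyloid was examined in microglia over both Cre states together, 9 APPPS1 against 4 amyloid-free mice. Of the 34 genes, 7 rose: the TNF superfamily ligand Tnfsf8, the CC chemokines Ccl3, Ccl4 and Ccl6, the chemokines Cxcl10 and Cxcl16, and Il12b. The receptor Cxcr4 fell. These 8 calls (23.5% of the 34) compare with 9.58% of 17593 genes, of which 6.06% were higher and 3.52% lower. The count was 5 without mouse 759, 15 without mouse 22 and 0 with mouse 459 kept as labelled. The median log2 change of the 34 was -0.17 against -0.05 for all genes, and 13 were positive. All 34 passed the filter on low counts in microglia. Because the genes were chosen with earlier results of these data known, the share of calls beside that of all genes does not test them as a set.

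**Figure D2:**
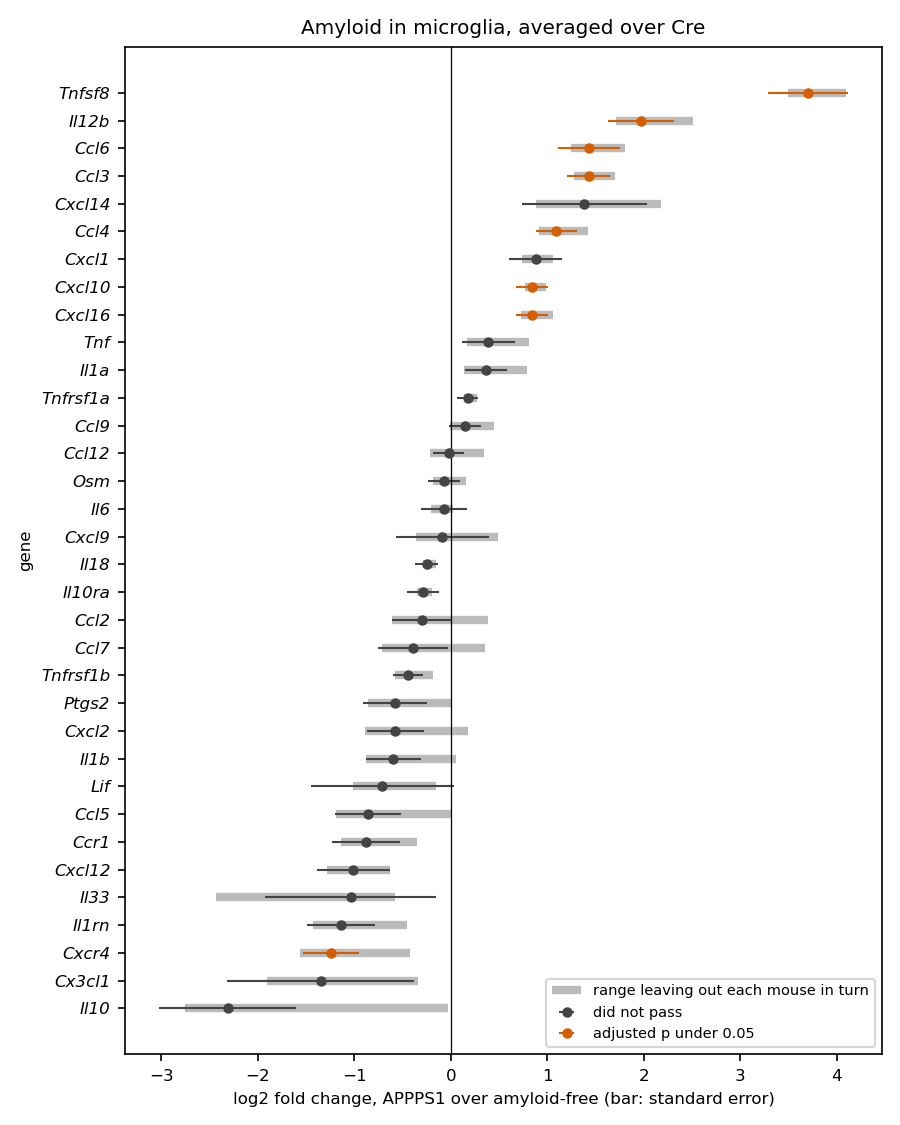
Log2 fold change of each of the 34 genes in microglia, APPPS1 over amyloid-free, averaged over Cre (points, with SE as thin bars), and the range when each of the 13 mice is left out in turn (grey). Orange points passed an adjusted p of 0.05; Tnfsf8 lies farthest to the right at 3.70, and the grey bars of Il10 and Cxcr4 reach from below -1 to near -0.03 and -0.42.

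Tnfsf8 encodes the ligand of CD30 (chromosome 4, 63831308 to 63861347, GRCm38). It stood at 0.913 and 1.06 CPM in the amyloid-free Cre-negative microglia, and at 3.57 and 1.61 CPM in the Cre-positive ones. In APPPS1 mice it stood at 13.3, 21.0, 6.81, 30.1 and 25.7 CPM without Cre, and at 13.3, 18, 24.5 and 17.0 CPM with it. All 9 APPPS1 libraries were above all 4 others, and the log2 change was 3.70 ± 0.41 (adjusted p = 7.0e-04 by edgeR). Leaving out any 1 mouse gave 3.49 to 4.10.

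Ccl3 and Ccl4 are neighbours on chromosome 11, 13.2 kb apart, and both rose. Ccl3 stood at 445 and 254 CPM, then 427 and 261 CPM, in the amyloid-free groups without and with Cre. In APPPS1 it stood at 654, 816, 638, 828 and 922 CPM without Cre and at 711, 766, 997 and 1226 CPM with it. The lowest APPPS1 library was thus above the highest amyloid-free one (1.43 ± 0.22, adjusted p = 0.0028 by edgeR). Ccl4 rose from 1638, 1134, 1822 and 935 CPM to 2118, 2439, 2546, 2711 and 2378 CPM without Cre and 2495, 2018, 3176 and 4050 CPM with it. Its groups did not overlap either (1.09 ± 0.21, adjusted p = 0.0086), and its adjusted p was 0.057 without mouse 759.

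Ccl6, in the same cluster 54.8 kb from Ccl3, varied more. It stood at 355 and 259 CPM, then 415 and 949 CPM, in the amyloid-free groups, where the high value is mouse 26. In APPPS1 it stood at 755, 1228, 518, 1431 and 1786 CPM without Cre and at 958, 1096, 1029 and 1200 CPM with it. Mouse 26 lay inside the APPPS1 range (1.43 ± 0.32, adjusted p = 0.016 by edgeR, and 0.075 without mouse 759).

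The chemokines Cxcl16 and Cxcl10 rose by the same amount. Cxcl16 stood at 69, 72.9, 63.0 and 41.5 CPM without amyloid and at 74.6 to 112 CPM (median 104 CPM, n = 9) with it, with no overlap (0.84 ± 0.16, adjusted p = 0.0086 by edgeR). Cxcl10, a ligand of Cxcr3, stood at 13.6, 17.8, 19.1 and 15.3 CPM without amyloid. Without Cre its APPPS1 values were 23.7, 18.1, 25.5, 19.3 and 17.3 CPM, of which 23.7, 25.5 and 19.3 CPM lay above the amyloid-free libraries, and with Cre they were 23.7, 34.6, 35.6 and 43.9 CPM, all above them (0.84 ± 0.16 over both Cre states, adjusted p = 0.0086). Without mice 26 and 439, the pair with the highest monocyte and neutrophil marker sums, Cxcl16 stood at 0.71 ± 0.18 (adjusted p = 0.051) and Cxcl10 at 0.76 ± 0.20 (adjusted p = 0.053), by edgeR with 2 libraries fewer.

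Il12b was low, and highest in the APPPS1 group with Cre. It stood at 0.467 and 1.13 CPM, then 2.30 and 0.803 CPM, in the amyloid-free groups, at 3.22, 2.28, 2.76, 2.01 and 3.06 CPM in APPPS1 without Cre and at 5.02, 4.72, 5.55 and 8.17 CPM with Cre. The amyloid-free library of mouse 22 overlapped the APPPS1 range (1.97 ± 0.34, adjusted p = 0.0049 by edgeR).

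**Figure D3:**
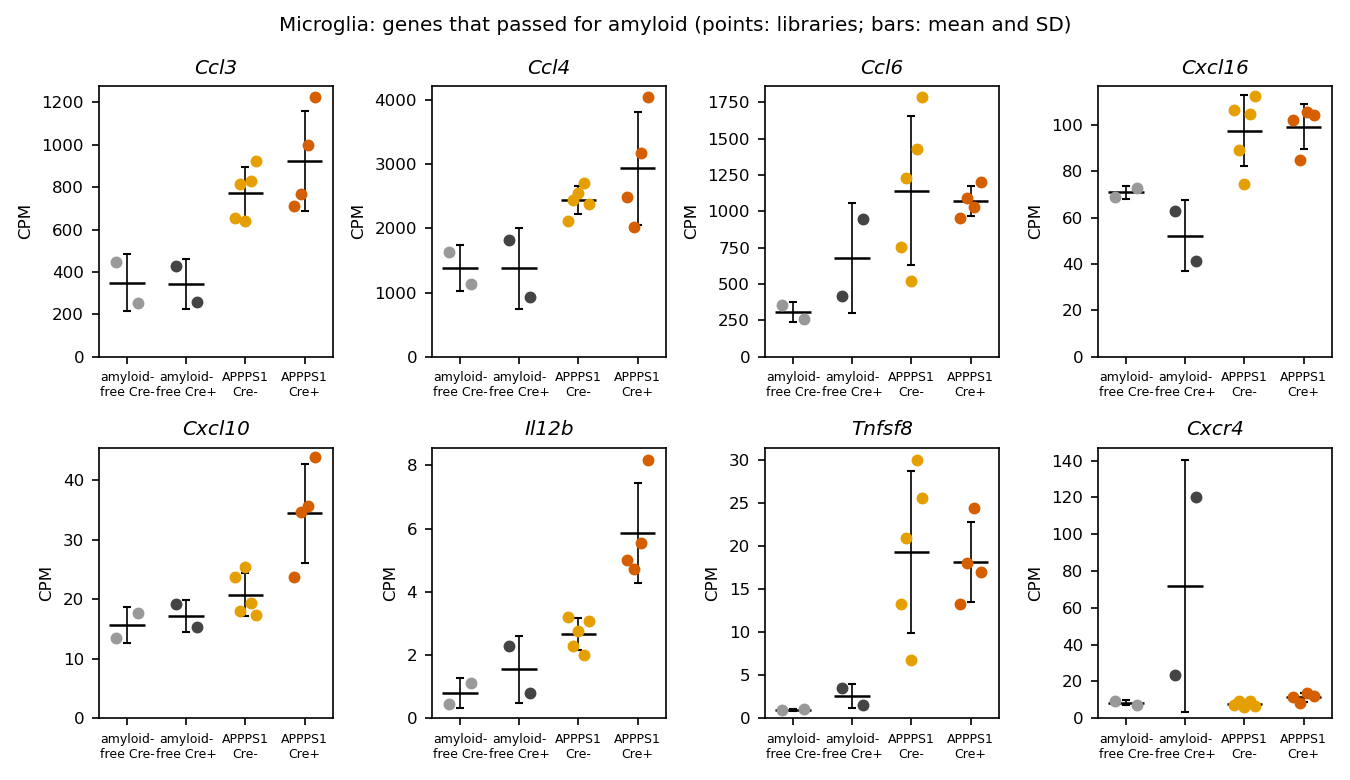
CPM in each microglia library for the 8 genes that passed for amyloid averaged over Cre, by genotype group (points), with group mean and SD (black). APPPS1 points sit above amyloid-free points without overlap for Ccl3, Ccl4, Cxcl16 and Tnfsf8, and the single high Cxcr4 point of 120 CPM is mouse 26.

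Cxcr4, the receptor of Cxcl12, fell by 1.24 ± 0.29 on the log2 scale (adjusted p = 0.020 by edgeR). Its values were 9.56 and 7.42 CPM in the amyloid-free Cre-negative group, 23.5 and 120 CPM in the Cre-positive group, 6.04 to 9.67 CPM in APPPS1 without Cre and 8.22 to 13.5 CPM with it. The Cre-negative amyloid-free libraries lay inside the APPPS1 range. Without mouse 26 the change was -0.42 and did not pass, nor did it without mouse 465 or 759. Of all tested genes, 2% were higher and 2.23% lower with no overlap, and of the 34, 4 were higher and 0 lower.

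The other 26 genes did not pass. Among the interleukin-1 family, Il1b was at -0.60 ± 0.28, its antagonist Il1rn at -1.14 ± 0.35, Il1a at 0.36 ± 0.22, Il18 at -0.25 ± 0.12 and Il33 at -1.04 ± 0.89. Il1b was 1045 CPM in mouse 26 and 108 to 340 CPM in the other 12 libraries, and its change was 0.05 without that mouse. Il10, an anti-inflammatory interleukin, was 58.8 CPM in mouse 26 and 0.0846 to 4.63 CPM elsewhere, and its change of -2.31 ± 0.71 became -0.03 without it. Tnf (0.39 ± 0.27), Tnfrsf1a (0.17 ± 0.11), Tnfrsf1b (-0.45 ± 0.16), Il6 (-0.07 ± 0.24), the gp130 cytokine Osm (-0.07 ± 0.17) and Ptgs2 (-0.58 ± 0.33) did not pass. Nor did the monocyte chemokines Ccl2 (-0.30 ± 0.31), Ccl7 (-0.39 ± 0.36) and Ccl12 (-0.02 ± 0.16), the Ccr1 ligand Ccl9 (0.15 ± 0.17), Ccl5 (-0.86 ± 0.34) or the receptor Ccr1 (-0.88 ± 0.35).

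Other genes, of these pathways and of the immediate early response, were taken from 11 lists that leave out the 34. Of 168 tested, 7 rose and 14 fell, 12.5% in all against the 9.58% of all genes, with 4.17% higher and 8.33% lower. The 168 include 20 immediate early and dissociation genes, of which 5 fell and 0 rose. The lower share is therefore not of cytokine pathways alone. Of 19 chemokine receptors tested, Ccr2, the receptor of Ccl2 on monocytes, fell (-1.43 ± 0.38), from 50.9 to 273 CPM to 22.2 to 111 CPM, and none rose. Ccr2 is also 1 of the 12 monocyte and neutrophil markers. Of 20 TNF receptor family genes, the decoy receptor Tnfrsf11b rose and Cd40 fell (-1.23 ± 0.34). Tnfrsf11b was at 0 to 0.170 CPM and 0.301 to 1.93 CPM. Of 11 TNF family ligands, Tnfsf13b (BAFF) rose (0.81 ± 0.19). Of 20 further interleukin genes, Mif, a macrophage cytokine, and the receptor subunit Il3ra rose (1.73 ± 0.27 and 2.19 ± 0.44) and Il17ra and Il7r fell (-0.88 ± 0.24 and -0.77 ± 0.22). In the interleukin-1 family Il1rl1, the receptor of Il33, rose (0.71 ± 0.20; 1 of 15), in the gp130 family Il11ra1 rose (0.73 ± 0.17) and Lifr fell (-0.81 ± 0.20; 11 tested), and of 15 prostaglandin genes the thromboxane synthase Tbxas1 rose (0.70 ± 0.20). Ppbp, the 1 of 12 other chemokine ligands that passed, was at most 0.363 CPM. None of 5 interleukin-10 and interleukin-12 family genes passed. Among 20 NF-kB genes 3 fell, Tnip3 (-2.28 ± 0.44), Rel (-0.87 ± 0.20) and Nfkbie (-0.58 ± 0.16), and among 20 immediate early genes 5 fell, with Klf2 at -1.92 ± 0.34 and Klf4 at -1.22 ± 0.23.

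Sums of other cells' markers differed between these groups as well. In microglia, astrocyte markers summed to 215 to 367.5 CPM without amyloid and 127 to 225 CPM with it, and endothelial markers to 69.2 to 359 CPM and 35.4 to 97.0 CPM. Monocyte and neutrophil markers summed to 1671 to 8294 CPM and 285 to 6695 CPM, and border macrophage markers to 451 to 876 CPM and 248 to 603 CPM. Microglial markers summed to 15620 to 36646 CPM without amyloid and 30764 to 36646 CPM with it, which overlapped. Of these 10 markers 4 rose and 0 fell. The part of all these sums in the amyloid differences was not tested.

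**Figure D4:**
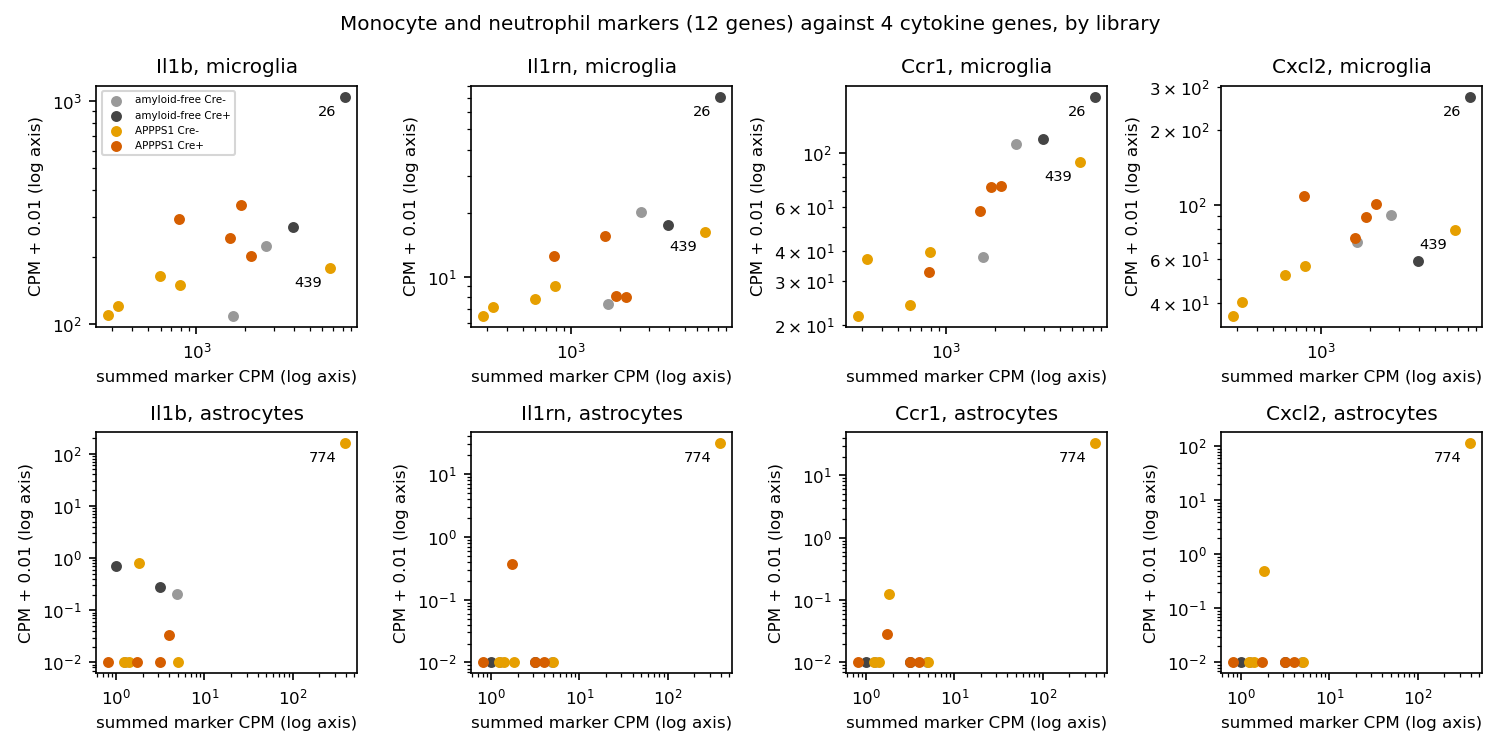
CPM of Il1b, Il1rn, Ccr1 and Cxcl2 (vertical, plus 0.01) against the summed CPM of 12 monocyte and neutrophil markers (horizontal) in each library, both on log axes, microglia above and astrocytes below. Mouse 26 is at the upper right of every microglia panel and mouse 774 at the upper right of every astrocyte panel, where it lies at 395 on the horizontal axis.

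Within Cre-negative mice, 5 against 2, only Tnfsf8 passed of the 34 (4.42 ± 0.61, adjusted p = 0.012 by edgeR), where 0.313% of genes passed (0.279% higher and 0.0341% lower). The groups did not overlap for 6 of the 34 that were higher and 3 that were lower, against 5.96% and 10.1% of all genes. It did not pass without mouse 465 or 759, or in a fit of these 7 libraries alone (adjusted p = 0.11). The nearest others were Ccl6 (2.02 ± 0.47, adjusted p = 0.094), Ccl3 (1.25 ± 0.31, 0.12), Il12b (1.86 ± 0.48, 0.13) and Ccl12 (-0.81 ± 0.22, 0.14), all by edgeR. Ccl12 was 321 and 337 CPM in the amyloid-free pair and 140 to 209 CPM in APPPS1. Border macrophage markers were also highest in that pair, at 708 and 876 CPM against 248 to 603 CPM, and their part was not tested. DESeq2 passed 6 of the 34 here, and its share of all genes is not given.

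Within Cre-positive mice, 4 against 2, 11 of the 34 passed, where 7.05% of genes did (3.65% higher and 3.39% lower). The groups did not overlap for 9 of the 34 that were higher and 9 that were lower, against 10.5% and 27.2% of all genes. Those that rose were Tnfsf8 (2.98 ± 0.56), Il12b (2.09 ± 0.49), the neutrophil chemokine Cxcl1 (1.67 ± 0.41), Ccl3 (1.61 ± 0.32), Ccl4 (1.27 ± 0.31), Cxcl10 (1.18 ± 0.24) and Cxcl16 (1.11 ± 0.24). Those that fell were Il10 (-3.61 ± 0.98), Cxcr4 (-2.47 ± 0.42), Cxcl12 (-2.17 ± 0.54) and Il1rn (-1.80 ± 0.51). None passed without mouse 26 or without mouse 458, and 4 passed without mouse 475. Leaving out mouse 26 leaves 1 amyloid-free Cre-positive library, taken to vary like the other groups. It turned Il10 to 0.96 and moved Cxcr4 to -0.84 and Il1rn to -0.44, while the 7 rising genes stayed positive at 0.87 or more. Cxcl12, which endothelial and mural cells also make, stood at 8.11 and 9.68 CPM in the amyloid-free pair and at 0.898 to 3.25 CPM in APPPS1. Endothelial markers summed to 154 and 359 CPM in that pair and to 35.4 to 97.0 CPM in the APPPS1 group, and pericyte and smooth muscle markers to 22.8 and 68.9 CPM and 1.76 to 15.2 CPM. Other sums were separate between these groups too. Monocyte and neutrophil markers stood at 3943 and 8294 CPM against 777 to 2179 CPM, immediate early genes at 12941 and 13251 CPM against 6118 to 11011 CPM, and astrocyte markers at 215 and 328 CPM against 163 to 208 CPM. Microglial markers stood at 15620 and 30393 CPM against 30764 to 33275 CPM, and 4 of 10 rose. The part of these differences in the 11 calls was not tested. The Cre-negative and Cre-positive comparisons use different mice, and the difference between them is the difference of the Cre effect given below.

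The effect of astrocytic Cre on microglia was examined in APPPS1 mice, 4 Cre-positive against 5 Cre-negative. None of the 34 passed (edgeR), where 0.00568% of genes did, and 7 lay under an unadjusted p of 0.05 (616 of all genes). DESeq2 and voom also passed 0. Of the 34, 24 were positive, with a median log2 difference of 0.29 against -0.01 for all genes. Il12b, Il10, Il1b and Ccl12 were higher in all 4 Cre-positive libraries than in all 5 others, and no gene was lower in that way, where 0.625% of genes were higher and 0.756% lower with no overlap.

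The 4 genes of lowest p were Cxcl10, Cxcl1, Il12b and Il10. Cxcl10 differed by 0.72 ± 0.17 (adjusted p = 1 by edgeR) with values listed above, where mouse 443 (23.7 CPM) overlapped the Cre-negative range. Cxcl1 stood at 12.3, 12.2, 8.04, 8.90 and 19.1 CPM without Cre and at 17.1, 22.1, 39.3 and 31.4 CPM with it (1.13 ± 0.29). Mouse 779 at 19.1 CPM lay above mouse 443 at 17.1 CPM. Il12b differed by 1.12 ± 0.33, and its lowest Cre-positive library (4.72 CPM) was above the highest Cre-negative one (3.22 CPM).

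Il10 stood at 0.625, 0.0846, 0.301, 0.580 and 0.106 CPM without Cre and at 2.14, 0.806, 0.849 and 4.63 CPM with it (2.65 ± 0.86). The lowest Cre-negative libraries, at 0.0846 and 0.106 CPM, were near the limit of 3 counts. Il1b stood at 178, 148, 120, 109 and 163 CPM without Cre and at 243, 202, 340 and 295 CPM with it (0.88 ± 0.32). Ccl12 stood at 191, 140, 209, 173 and 163 CPM, then at 234, 236, 235 and 210 CPM (0.38 ± 0.18). The nearest libraries of Ccl12, mice 469 and 475, differed by less than 1 CPM.

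Cxcl2, next to Cxcl1 at 10.8 kb, differed by 0.80 ± 0.34 and Ptgs2 by 0.92 ± 0.37. Ptgs2 was 29.8 CPM in mouse 460 and 8.05 to 11.2 CPM in the other 3 Cre-positive libraries, against 6.74 to 8.99 CPM without Cre. Tnf (0.56 ± 0.30) and Il1a (0.50 ± 0.24) were positive and overlapped. Monocyte and neutrophil markers summed to 285 to 6695 CPM without Cre and 777 to 2179 CPM with it, and immediate early genes, which respond to cell isolation, to 5040 to 16119 CPM and 6118 to 11011 CPM, so both ranges overlapped. For the monocyte and neutrophil markers the overlap rested on 2 libraries: mouse 439 had 6695 CPM and mouse 447 had 787 CPM, the other Cre-negative libraries had 285 to 593 CPM, and the Cre-positive ones had 777, 1623, 1890 and 2179 CPM. The part of these cells in the higher Il1b, Il10 and Cxcl2 values was not tested. No gene of the 11 pathway lists passed in this comparison.

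**Figure D5:**
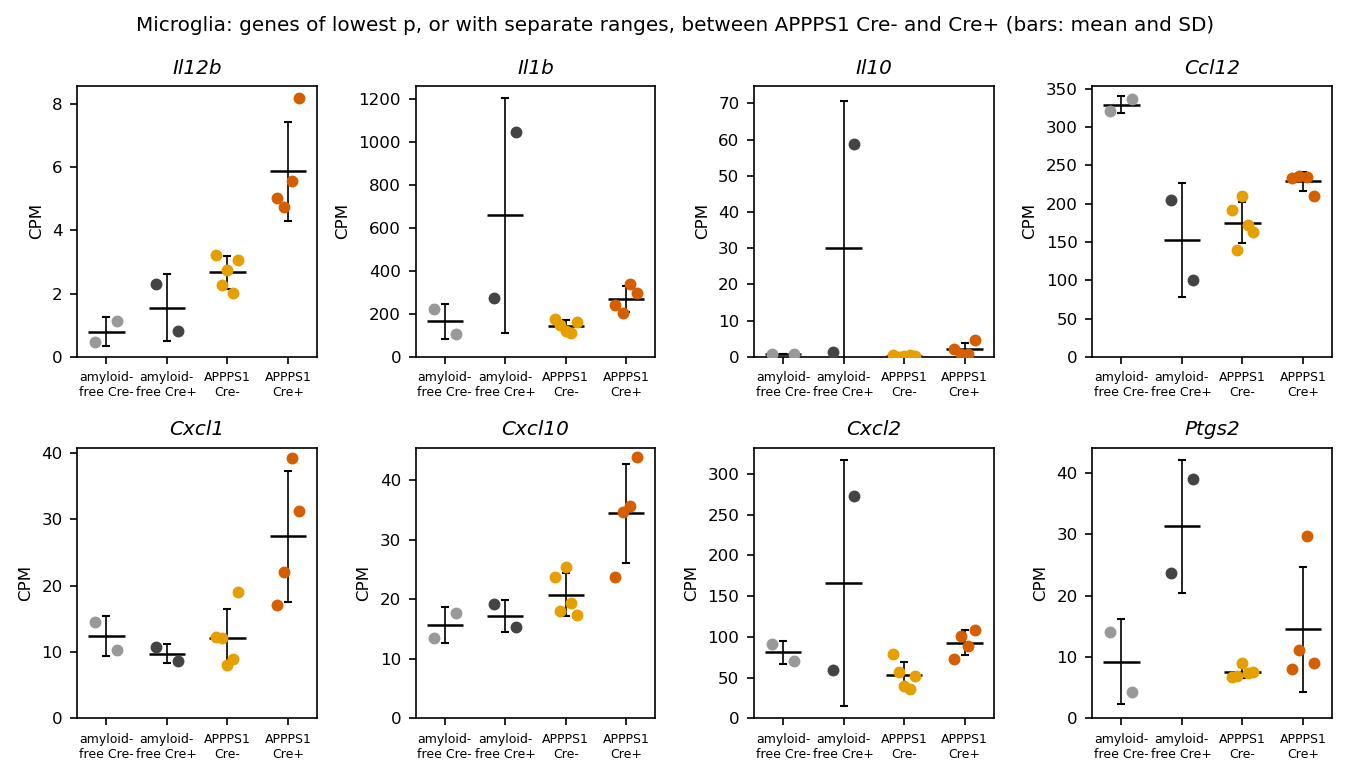
CPM in each microglia library for 8 genes, by genotype group (points), with group mean and SD (black): the 7 under an unadjusted p of 0.05 between the APPPS1 groups, and Ccl12, whose ranges were separate. In Il12b, Il1b, Il10 and Ccl12 the 4 APPPS1 Cre-positive points lie above the 5 Cre-negative ones; the highest points of Il1b, Il10, Cxcl2 and Ptgs2 are mouse 26.

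In amyloid-free microglia, 2 against 2, none of the 34 passed (edgeR), where 0.0114% of genes did. Of the 34, 11 lay under an unadjusted p of 0.05, against 2596 of all 17593 genes. DESeq2 passed 5. Cxcr4 (2.97 ± 0.54, adjusted p = 0.11), Ccl12 (-1.20 ± 0.27, 0.17), Il1b (1.88 ± 0.50, 0.19) and Il10 (5.24 ± 1.39, 0.19) had the lowest p by edgeR. Ccl12 was 205 and 99.9 CPM with Cre against 321 and 337 CPM without it. Border macrophage markers were separate in the same way, at 451 and 470.5 CPM against 708 and 876 CPM, and their part was not tested. The 3 that were higher rested largely on mouse 26: without it Cxcr4 was at 1.36, Il1b at 0.60 and Il10 at 0.68. Without mouse 22, which leaves mouse 26 alone with Cre, 7 of the 34 passed. Of the 34, 15 were higher and 4 lower with no overlap, where 29.4% and 16.6% of genes were.

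The Cre effect was then compared between APPPS1 and amyloid-free microglia. None of the 34 passed (edgeR), where 0% of genes did. An unadjusted p under 0.05 was found for 6 of the 34 and for 1527 of all 17593 genes. Ccl12 had the lowest p, with 1.58 ± 0.32 (adjusted p = 0.27), positive with amyloid and negative without. The negative side is the comparison of 2 against 2 mice above, in which the border macrophage sums also differed. Cxcr4 (-2.46 ± 0.62, 0.49), Cxcl1 (1.58 ± 0.53, 0.52) and Cxcl12 (-2.33 ± 0.80, 0.52) followed. DESeq2 passed 2, Ccl12 and Cxcr4.

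In astrocytes 26 of the 34 genes passed the filter on low counts. The others were Cxcl9, Ccr1, Il6, Il10, Il12b, Osm, Tnf and Il10ra, of which Ccr1, Osm, Tnf and Il10ra were at 32.5, 6.81, 6.23 and 4.20 CPM in mouse 774 and at most 0.186 CPM elsewhere. For amyloid, 9 against 4 mice, none passed (edgeR), where 0% of genes did. An unadjusted p under 0.05 was found for 2 of the 26 and for 1409 of all 20052 genes. DESeq2 and voom passed 0. Of the 26, 20 were positive and 6 negative, with a median log2 change of 0.95 against 0.04 for all genes. Mouse 774 lies on the APPPS1 side, and its part in this median was not tested. Cxcl10 stood at 0.360, 0.718, 0.219 and 1.59 CPM without amyloid and at 0.783 to 4.75 CPM (median 1.59 CPM) with it (1.59 ± 0.60, adjusted p = 0.56). Cxcl12 stood at 30.9, 98.6, 6.66 and 15 CPM without amyloid and at 15.2 to 132 CPM with it (1.25 ± 0.50, 0.61). Both overlapped. Il1rn and Ccl7, next in order, were at 0 in most libraries and are given no fold.

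The genes highest in astrocytes did not pass for genotype. Il18 was 285 to 409 CPM in APPPS1 Cre-negative and 283 to 460 CPM in Cre-positive astrocytes. Il33 was 370, 314, 553, 622 and 411 CPM, then 374, 384, 271 and 348 CPM (-0.44 ± 0.21, adjusted p = 0.74 by edgeR). Cxcl14 was 247 to 563 CPM and 326 to 475 CPM. None of the 34 passed for Cre in APPPS1 astrocytes, where 0.00997% of genes did, and DESeq2 and voom passed 0. Of the 26 genes tested, 4 were positive and 22 negative, with a median log2 difference of -1.8 against -0.0005 for all genes. Mouse 774 lies on the Cre-negative side, and its part in this median was not tested. The groups overlapped for all 26 genes tested, while 1.32% of genes were higher and 0.593% lower with no overlap. Of the 26, 5 lay under an unadjusted p of 0.05, against 1343 of all 20052 genes. Of the 4 of lowest p, Il1b was 157 CPM in mouse 774 and at most 0.789 CPM in the other 8 libraries, Cxcl2 113 CPM and at most 0.487 CPM, and Ccl4 16.8 CPM and at most 3.76 CPM. Ccl12 was 1.38 and 1.16 CPM in mice 439 and 469 and at most 0.0483 CPM in the others.

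The library of mouse 774 held neutrophil genes with these cytokines. S100a8 stood at 184 CPM, S100a9 at 132 CPM and Retnlg at 49.0 CPM. Ngp (1.23 CPM) was low, and Ly6g (0.145 CPM) and Camp (0 CPM) were near or at 0. Its Cxcl2 (113 CPM), Il1rn (30.9 CPM), Ptgs2 (22.9 CPM), Ccr1 (32.5 CPM) and Il1b (157 CPM) exceeded the microglia library of the same mouse, at 319%, 475%, 312%, 150% and 144% of it. The microglial genes P2ry12 and Csf1r were at 0.227% and 0.208% of it, and Ccl4 at 0.621%. Its microglial marker sum, 137 CPM, was within the range of the other astrocyte libraries. The microglial gene C1qa was highest there, at 3.07 CPM against at most 1.28 CPM in the other astrocyte libraries. Which cells gave the cytokine reads of this library was not tested.

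In amyloid-free astrocytes, 2 against 2, none of the 34 passed for Cre (edgeR), where 0.204% of genes did (0.0449% higher and 0.16% lower). The groups did not overlap for 4 of 26 that were higher and 4 that were lower, against 22.8% and 25.2% of genes. Of the 26, 3 lay under an unadjusted p of 0.05, against 2581 of all 20052 genes, and DESeq2 passed 1. Cxcl12 was 6.66 and 15 CPM with Cre against 30.9 and 98.6 CPM without (-2.58 ± 0.82, adjusted p = 0.18), and Cxcl14 was 650 and 641 CPM against 499 and 220 CPM (0.85 ± 0.36, 0.34). Il33 was 318 and 363 CPM against 359 and 624 CPM (-0.53 ± 0.31, 0.50). Ccl5 was 0.0274 and 4.59 CPM against 0 in both. Endothelial markers summed to 79.4 and 107 CPM with Cre and to 313 and 1011 CPM without, and the pair with Cre had the lowest sums of all 13 astrocyte libraries. Their part in the Cxcl12 values was not tested.

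The amyloid effect was last compared between the sorts. Of the 34, Tnfsf8 alone passed (5.73 ± 1.13, adjusted p = 0.010 by edgeR), where 1.5% of genes did (0.773% more positive in microglia and 0.731% more negative). With the mouse as a block the difference was 5.70 and the adjusted p 0.14. Tnfsf8 was at most 0.287 CPM in any astrocyte library and at 0 in 7 of them, so the astrocyte side rests on few counts. It did not pass without mouse 759 or 26. Outside the 34, Mif (1.74) and Rel (-2.70) passed in the same comparison among the genes of the pathway lists.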

How the data were processed

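The values are the raw gene counts, mouse and human, that the authors deposited. Per the submitters' processing notes, reads passed through bcl2fastq, STAR and featureCounts of Subread, with builds GRCm38 and GRCh38; settings, strand included, are not given in the sources used here. Repeated entries of 167 mouse gene IDs held the same counts, and 1 of each was used. CPM divides a count by the library's mouse gene total, and RPKM also by the exon length of GENCODE M21.

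Mouse genes were filtered by group, scaled with TMM and tested with edgeR 4.0.16 in R 4.3.3 (quasi-likelihood F test), with 1 fit of the 13 libraries of a sort and 1 of all 26 for comparisons of sorts. Benjamini-Hochberg adjustment ran over every gene in the fit. Log2 changes carry the TMM scaling and the printed CPM do not, so they need not match. An SE was obtained by dividing the size of a log2 change by the root of its F value. The 34 genes, the lists and the rule for naming genes were chosen with earlier results of these data known. The text gives in full the genes past an adjusted p of 0.05, or the 4 of lowest p where none passed, and up to 4 genes that passed from each list.

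Alternatives were RLE scaling, DESeq2 1.42.0, limma-voom 3.58.1, no filter, mouse 459 kept, the compared groups alone, each mouse left out, and the mouse as a block. The mouse number pairs the sorts because both came from the same animal; deviations of a mouse's 2 libraries correlated at -0.0582 to 0.16. Leaving out mice 26 and 439 together was chosen after seeing the data. The fits were tested on simulated counts of 17593 genes, with changes placed only in genes of mean log2 CPM above 1. For amyloid in microglia 71% of the 2-fold changes were recovered, with 8 false calls. For Cre in APPPS1 microglia 54% were recovered, with 9 false calls. These shares do not cover genes at low counts, such as Cxcl9 in microglia, and no outlying library like that of mouse 26 was simulated. Counts of any 2 libraries of 1 group differed well beyond sampling noise (lowest chi-square per degree of freedom 39.5). Limits from counts cover counting error only. The labels give 5 APPPS1 mice per group and the series description 4; the labels were followed.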

Additional observations from a re-analysis of the deposited data

Results flagged for a closer look

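Single libraries stood apart from their own group (Dixon's test, groups of 4 and 5, groups whose highest library was under 1 CPM left out) in 27 of 99 groups tested. The test flags about 1 in 20 for independent normal values. Here the groups share the same libraries, and many flags come from the astrocytes of mouse 774. The 27 are therefore not separate events to set against that rate. In APPPS1 Cre-negative microglia, mouse 439 was high for Ccl5 (39.4 CPM), Ccr1 (91.7 CPM) and Il1rn (16.2 CPM). That library had the second highest monocyte and neutrophil marker sum, 6695 CPM, whose part was not tested. Mouse 469 was high for Ccl2 (223 CPM), Ccl7 (104 CPM) and Tnf (175 CPM), mouse 774 for Cxcl14 (6.27 CPM), mouse 779 for Il33 (1.45 CPM) and mouse 447 for Il6 (16.2 CPM). In APPPS1 Cre-positive microglia, mouse 475 was low for Ccl12 (210 CPM) and high for Il33 (1.07 CPM), and mouse 460 high for Ptgs2 (29.8 CPM).

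In APPPS1 Cre-negative astrocytes, mouse 774 was high for Il1b (157 CPM), Cxcl2 (113 CPM), Ccl6 (32.6 CPM), Il1rn (30.9 CPM), Ptgs2 (22.9 CPM), Ccl4 (16.8 CPM), Il1a (11.6 CPM), Tnfrsf1b (10.8 CPM), Ccl3 (9.24 CPM) and Ccl9 (1.23 CPM). Mouse 779 was high for Ccl7 (1.10 CPM) and mouse 439 for Cxcl12 (132 CPM), where its endothelial marker sum was also the highest of the 13 astrocyte libraries (1142 CPM; its part was not tested). In APPPS1 Cre-positive astrocytes, mouse 475 was high for Cxcl10 (3.27 CPM) and Tnfrsf1b (1.48 CPM) and mouse 443 for Cxcl16 (1.31 CPM). The fitted amyloid effect on Tnfsf8 differed between the sorts by 5.73 on the log2 scale (adjusted p = 0.010 by edgeR, and 0.14 with the mouse as a block). The call was also lost without mouse 759 or 26, and Tnfsf8 was at most 0.287 CPM in any astrocyte library, so the size of the difference rests on few counts.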

How the results depend on the processing

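With mouse 459 kept as labelled, 0 of the 34 genes passed for amyloid in microglia (averaged, Cre-negative or Cre-positive) and 0 for the difference of the amyloid effect between sorts; Ccl4 for Cre in APPPS1 astrocytes turned from -3.97 to 7.80. Leaving out each mouse gave 5 to 15 genes for amyloid averaged over Cre (main 8), 0 to 3 in Cre-negative (main 1), 0 to 16 in Cre-positive microglia (main 11), 0 to 7 for Cre in amyloid-free microglia (main 0), 0 to 2 for the difference of the Cre effect (main 0) and 0 to 1 for the sort difference (main 1). Without mice 26 and 439 these were 5, 3 and 0 for the 3 amyloid comparisons, and Il10 in Cre-positive microglia turned to 0.959, as it did without mouse 26 alone (range -4.49 to 0.959 over the mice left out). In Cre-negative microglia DESeq2 passed 6, no filter 3, voom 0 and the compared groups alone 0. DESeq2 and no filter each passed 5 for Cre in amyloid-free microglia and 2 for the difference of the Cre effect. DESeq2 passed 1 for Cre in amyloid-free astrocytes. For the sort difference DESeq2 passed 6, voom 0 and the replicate block 0; the block changed no other call. Of 759 values of named genes under alternatives, 647 kept direction and side of the threshold, 91 lost the call, 18 gained it and 3 reversed. RLE scaling moved the median of all genes between sorts from -0.184 to -0.299, and every one of the 34 still passed. The causes of these changes were not tested. Shares of all genes are not given under these alternatives, so their counts cannot be set against the shares of the main fit.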
